A study of Mus musculus with 6 samples.

Results

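T-box factors are transcription factors that share a DNA-binding domain, the T-box, and bind short sites that contain the core AGGTGTGA. Some members act mainly as repressors and others mainly as activators, and they often compete for the same sites. In the embryo they divide the heart into chambers and conducting tissue, and pattern the pharyngeal arches, the limbs and the face. Neural crest cells (NCCs) migrate through the pharyngeal arches into the outflow tract of the heart and form much of the skeleton of the face.

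The 9 T-box factors described here are Tbx1, Tbx2, Tbx3, Tbx4, Tbx5, Tbx15, Tbx18, Tbx20 and Tbx22. They were chosen by name for their known roles in the heart, arches, limbs and face, with earlier results of these data known. Their Ensembl identifiers were matched through GENCODE mouse release 21. These factors are 9 of 46983 genes in the count table and 9 of 17 T-box family genes looked up in it. GFP-positive NCCs were sorted from E11.25 embryos and their poly(A) RNA was sequenced in 6 samples, 3 of them control and 3 with deletion of BAF155 and BAF170 (deficient). Controls carried Wnt1Cre/+, BAF155flox/+, BAF170flox/+ and Rosa26mTmG/+, and deficient embryos carried Wnt1Cre/+, BAF155flox/flox, BAF170flox/flox and Rosa26mTmG/+. All 6 samples thus shared the Cre driver and the reporter, and the controls themselves were heterozygous for both floxed alleles. Wnt1-Cre is also active in the dorsal neural tube, so GFP does not mark NCCs alone. BAF155 and BAF170, encoded by Smarcc1 and Smarcc2, are core subunits of the BAF chromatin remodelling complex.

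Libraries held 8191219 to 11661941 counts in the controls and 12633319 to 19808620 in the deficient samples, so depth differed between the groups. Smarcc1 ran from 35.1 to 55.0 CPM (counts scaled to a common library size) in control libraries and from 24.4 to 29.4 CPM in the deficient samples (log2 fold change −0.71, adjusted p = 0.0676), and Smarcc2 from 89.9 to 92.9 and from 82.3 to 86.8 CPM (−0.11, adjusted p = 0.251). The exon bounds of the floxed segments were not used here, so these counts over whole genes are not a check of the deletion. The labelled cell type was checked against its markers. Markers of mesenchymal crest were detected, but per length their 16 genes summed to 16.3 to 32.3 CPM per kb in the controls, whereas 12 macrophage markers summed to 9140 to 10600 CPM per kb. Macrophage marker transcripts thus far outnumbered those of mesenchymal crest markers in every library, and each T-box level below is a level within that mixture. In such bulk RNA, fewer cells of a type and less RNA per cell cannot be told apart.

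Tbx2 and Tbx3 held most of the counts of the 9 members and both were lower in the deficient samples. Tbx2, a repressor that keeps the atrioventricular canal and outflow tract from becoming chamber muscle, fell 2.69-fold. Tbx3, the closely related repressor that marks the conduction system, fell 2.87-fold. Tbx15 and Tbx20 were low and did not pass the test, and Tbx1, Tbx4, Tbx5, Tbx18 and Tbx22 had at most 10 counts in any library. Of the 9 members, 4 passed the filter on low counts and 5 did not.

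Calls needed an adjusted p no higher than 0.1, a log2 fold change beyond 0.58 in either direction and a mean level no lower than 2 CPM. By that rule 2 members were called lower, against a background of 4.88% of the 13961 tested genes called lower. No member was called higher by edgeR, where 0.0573% of all tested genes were. None had an unadjusted p under 0.05 with a higher level either, and DESeq2 and limma-voom also called 0 members higher. In edgeR 3813 of the 13961 tested genes had an unadjusted p under 0.05, in either direction. All 4 tested members had a negative log2 fold change, as did 52.3% of all tested genes. Their median was −1.29, against −0.02 over all tested genes. Tbx20 entered the tested set through the controls, with 3 control libraries but only 1 deficient library at the filter. The filter thus favoured a negative value for Tbx20, and both the count of 4 and this median include it.

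**Figure D1:**
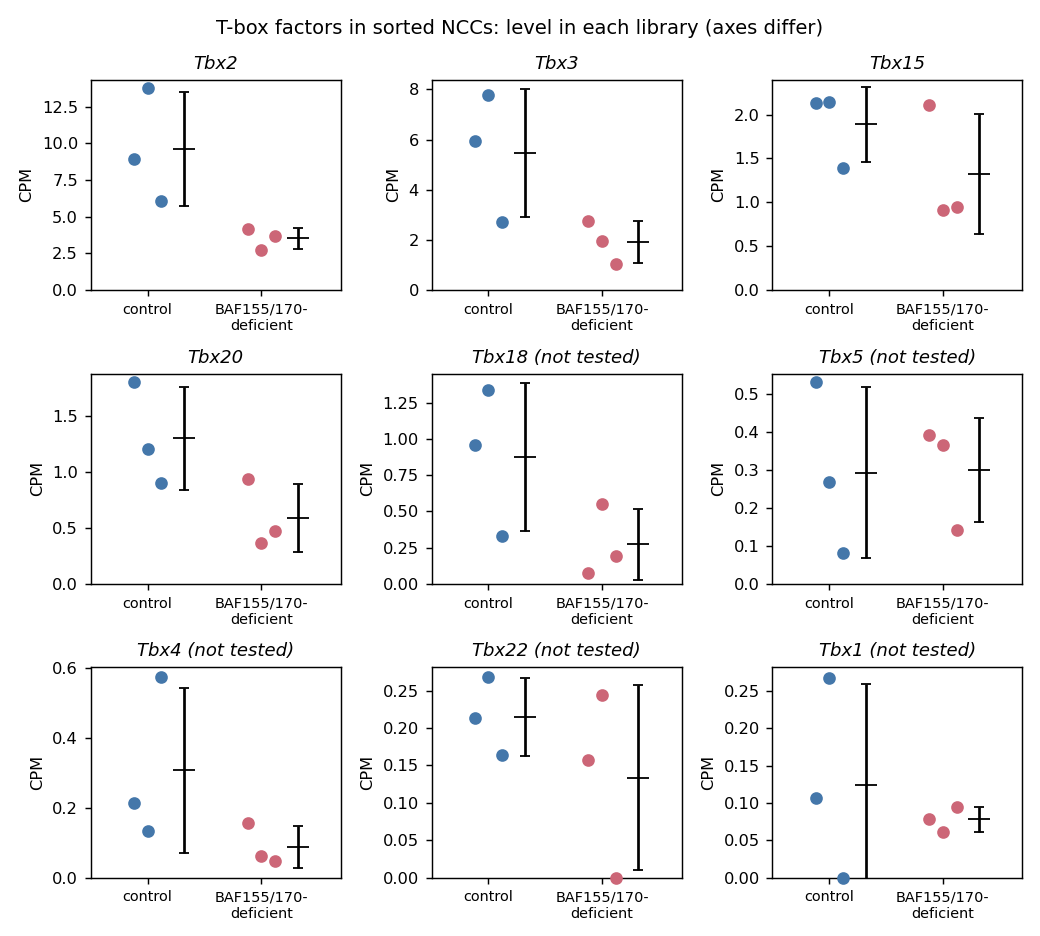
Level of each T-box factor in each library, in CPM on normalized library sizes; circles are the 3 control (blue) and 3 deficient (red) libraries, the bar is the mean and the whiskers the SD, cut at 0. Only for Tbx2 do all 3 deficient libraries, from 2.75 to 4.15 CPM, lie under all 3 controls, from 6.07 to 13.8 CPM.

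Tbx2 (ENSMUSG00000000093.6) lies on the plus strand of chromosome 11 in GRCm38, chr11:85832551-85841948. Its counts were 84, 103 and 74 in control replicates 1, 2 and 3 and 53, 45 and 77 in deficient replicates 1, 2 and 3. Scaled to library size the controls stood at 8.93, 13.8 and 6.07 CPM and the deficient samples at 4.15, 2.75 and 3.66 CPM. The groups did not overlap, a pattern seen on the lower side in 16.4% of all tested genes. Control replicate 2 was the highest library and deficient replicate 2 the lowest. The means were 9.59 ± 3.89 CPM in the controls and 3.52 ± 0.711 CPM in the deficient samples (SD, n = 3 each), a log2 fold change of −1.43 (SE 0.30) with an edgeR adjusted p of 0.0534.

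Tbx3 (ENSMUSG00000018604.18) lies on the plus strand at chr5:119670669-119684724. Control replicates 1, 2 and 3 held 56, 58 and 33 counts and deficient replicates 1, 2 and 3 held 35, 32 and 22. The controls stood at 5.96, 7.76 and 2.71 CPM and the deficient samples at 2.74, 1.96 and 1.04 CPM. The groups met at their edges, since control replicate 3 lay just under deficient replicate 1. The means were 5.47 ± 2.56 and 1.91 ± 0.849 CPM (SD, n = 3 each), a log2 fold change of −1.52 (SE 0.45) with an edgeR adjusted p of 0.0901. The antisense gene Tbx3os1 overlaps the 5′ end of Tbx3 and held 1 to 8 counts in a library, and the strand setting of the counting is not given in the sources used here.

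Both calls were lost when single libraries were left out. The edgeR adjusted p of Tbx2 was 0.214 without control replicate 1, 0.137 without control replicate 2 and 0.167 without deficient replicate 3, at log2 fold changes of −1.47, −1.09 and −1.46. That of Tbx3 was 0.258 without control replicate 1, 0.273 without control replicate 2, 0.178 without deficient replicate 2 and 0.265 without deficient replicate 3, at log2 fold changes from −1.56 to −1.19. The same omissions left 0 genes of the whole table called lower without control replicate 1, 61 without control replicate 2, 219 without deficient replicate 2 and 17 without deficient replicate 3, in place of 681. Over all 13 other settings the log2 fold change stayed negative, from −1.69 to −0.58 for Tbx2 and from −1.87 to −0.67 for Tbx3. The values nearest 0 came when libraries were scaled to 27 markers of crest and neural tube, as given below with those markers.

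**Figure D2:**
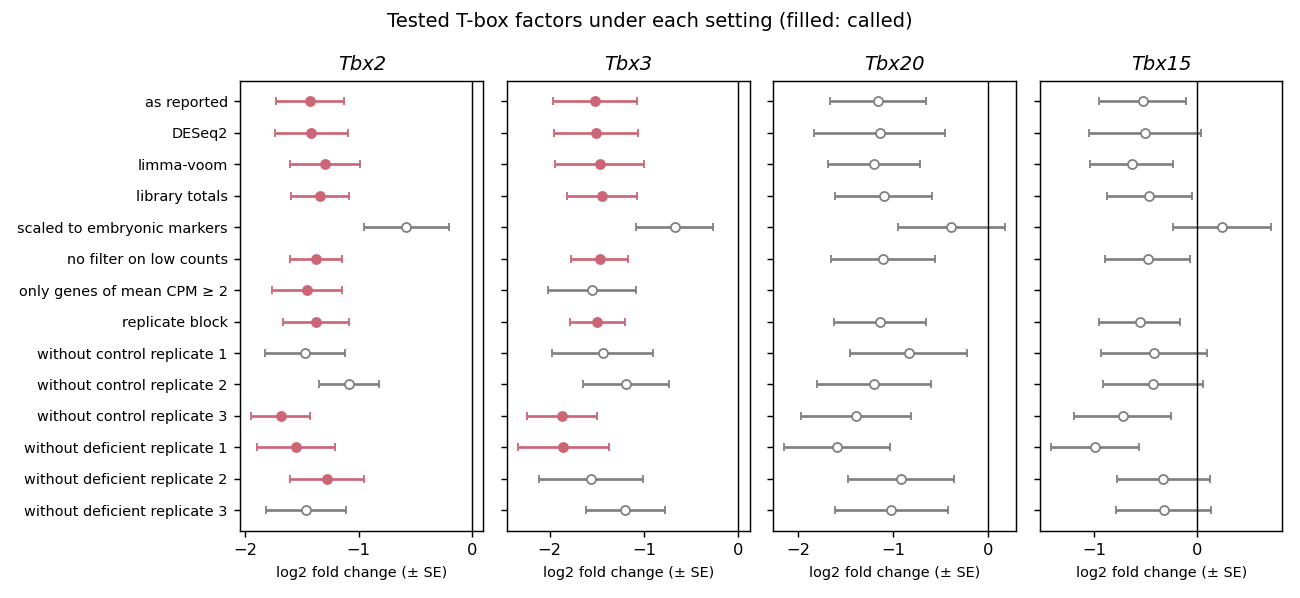
Log2 fold change, deficient over control, with its SE (whiskers) for the 4 tested T-box factors under the reported fit and each other setting; filled circles are called, open ones are not, and a missing circle means that the gene was not tested in that setting. Tbx2 runs from −1.69 to −0.58 and Tbx3 from −1.87 to −0.67, and scaling to the crest and neural tube markers gives the value nearest 0 for both.

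Tbx15, which patterns limb and skin mesenchyme and the skeleton, lies at chr3:99240381-99354259 on the plus strand. Control replicates held 20, 16 and 17 counts (2.13, 2.14 and 1.39 CPM) and deficient replicates 27, 15 and 20 (2.11, 0.917 and 0.950 CPM). Deficient replicate 1 stood level with the highest controls, so the groups overlapped. The log2 fold change was −0.53 (SE 0.42, adjusted p = 0.453) by edgeR, and it turned to 0.25 when libraries were scaled to the crest and neural tube markers.

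Tbx20, required for growth of heart muscle and valves and a repressor of Tbx2 in the chambers, lies on the minus strand at chr9:24718138-24774303. It had 17, 9 and 11 counts in the controls (1.81, 1.20 and 0.903 CPM) and 12, 6 and 10 in the deficient samples (0.940, 0.367 and 0.475 CPM). Deficient replicate 1 lay just above control replicate 3, and the other deficient libraries lay under all controls. The log2 fold change was −1.16 (SE 0.50) with an edgeR adjusted p of 0.165 and an unadjusted p of 0.0413. Tbx20 reached the filter in all 3 controls but in only 1 deficient library, and its mean of 0.949 CPM was under the 2 CPM that a call needs.

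**Figure D3:**
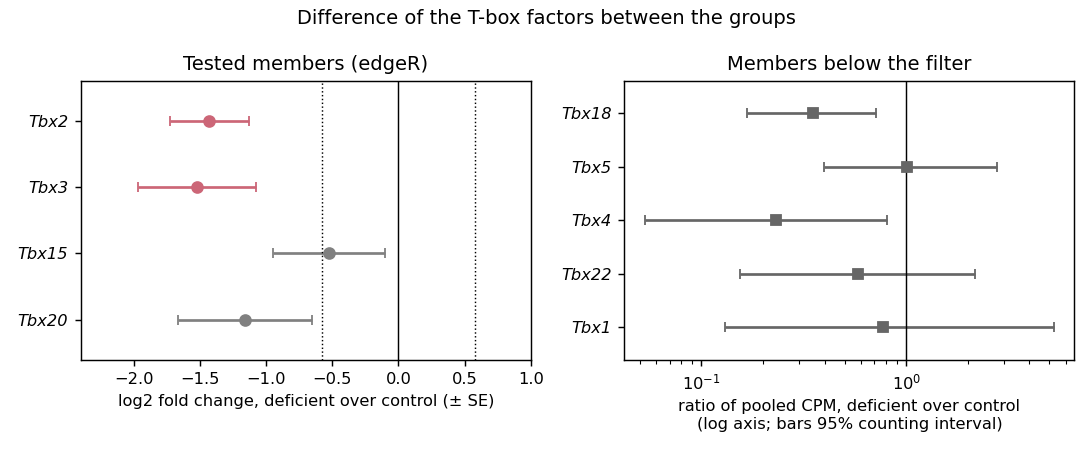
Left, log2 fold change, deficient over control, of the 4 tested T-box factors with SE (whiskers), dotted lines at ±0.58 and called genes in red; right, ratio of pooled CPM on a log axis for the 5 factors below the filter, with 95% counting intervals. Tbx2 at −1.43 and Tbx3 at −1.52 are the called members, and on the right the intervals of Tbx18 and Tbx4 lie under 1.

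The other 5 members were too sparse for the test across genes. Their counts were pooled over each group, and ratios carry exact 95% intervals that cover counting error only and not the spread between samples. Tbx18, a marker of the epicardium and the sinus horns (chr9:87702800-87731260), had 9, 10 and 4 counts in the controls and 1, 9 and 4 in the deficient samples. The pooled level was 0.791 CPM (0.502 to 1.19) in the controls and 0.279 CPM (0.152 to 0.468) in the deficient samples, a ratio of 0.352 (0.168 to 0.715). The groups overlapped, and a two-sided exact permutation test of the 3 against 3 libraries gave p = 0.2, where the smallest p this design allows is 0.1. Fitted without a filter on low counts, Tbx18 had a log2 fold change of −1.51 (SE 0.71, edgeR adjusted p = 0.231). The log2 ratio of mean CPM of Tbx18 was −1.68 with all libraries and −2.70 without deficient replicate 2, which held most of its deficient counts.

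Tbx4, needed for hindlimb outgrowth (chr11:85886422-85916097), had 2, 1 and 7 counts in the controls and 2, 1 and 1 in the deficient samples. Its pooled ratio was 0.232 (0.0530 to 0.803), and control replicate 3 alone held most of the control counts. Without that library the log2 ratio of mean CPM was −0.97 in place of −1.80. The permutation test gave p = 0.2 (exact, two-sided).

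Tbx5, the activator behind septation of the heart and forelimb outgrowth (chr5:119832668-119885219), had 5, 2 and 1 counts in the controls and 5, 6 and 3 in the deficient samples. Its pooled ratio was 1.01 (0.397 to 2.79), and a change within that interval was not detectable at this depth. Tbx1, the factor of the pharyngeal arches whose loss causes outflow tract defects (chr16:18580979-18590671), had 1, 2 and 0 counts against 1, 1 and 2. Its ratio was 0.772, with a counting interval on both sides of 1 (0.131 to 5.27). Tbx22, a gene of the developing palate on chrX:107667964-107688978, had 2, 2 and 2 counts against 2, 4 and 0, with a ratio of 0.579 (0.155 to 2.17). Tbx1 and Tbx22 each had a library at 0, where 3 counts are worth 0.246 CPM in control replicate 3 and 0.142 CPM in deficient replicate 3.

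Levels of different genes were compared per length, as CPM per kilobase of the union of GENCODE exons. In the controls Tbx2 stood at 2.65 ± 1.07 (SD, n = 3) CPM per kb, above Tbx3 at 0.827 ± 0.386 with no overlap between libraries. Tbx3 and Tbx15 (0.504 ± 0.114) overlapped, and Tbx15 lay above Tbx18 (0.185 ± 0.108) in every library. Below that, Tbx20 (0.109), Tbx4 (0.0903), Tbx5 (0.0629), Tbx22 (0.0387) and Tbx1 (0.0354) followed, and neighbours in this order overlapped. In the deficient samples Tbx2 was again the highest at 0.970 ± 0.196, followed by Tbx15 at 0.354 ± 0.182 and Tbx3 at 0.289 ± 0.128, whose libraries overlapped. Averaged over the 6 libraries, Tbx2 exceeded 40.5% of the tested genes per length and Tbx3 15.9%.

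The balance between the paired repressors was also read within each library. Tbx2 stood above Tbx3 per kb by a log2 ratio of 1.73 ± 0.29 in the controls and 1.84 ± 0.73 in the deficient samples (SD, n = 3 each). The difference of 0.11 was smaller than the spread between replicates (two-sided exact permutation p = 0.9). Deficient replicate 3, at 2.68, was the library with the least Tbx3 for its Tbx2. Together Tbx2 and Tbx3 made up 63.8% to 79.3% of the summed CPM of the 9 members. All 9 members summed to 20.9, 27.2 and 12.2 CPM in control replicates 1, 2 and 3 and 10.8, 7.27 and 6.60 CPM in deficient replicates 1, 2 and 3.

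Tbx2 and Tbx4, and Tbx3 and Tbx5, are neighbours on the genome, each pair transcribed in the same direction. Tbx4 starts 44.5 kb after the end of Tbx2, and Tbx5 starts 148 kb after the end of Tbx3. Per length, Tbx2 exceeded Tbx4 and Tbx3 exceeded Tbx5 in every library. Tbx3 fell while its neighbour Tbx5 had a pooled ratio of 1.01 from 22 counts in all, and the difference between the neighbours was not tested.

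The genes whose library-to-library pattern was most like that of Tbx2 were found by the root mean square difference of log2 CPM, centred on the mean over 6 libraries, among 11786 genes with a mean of at least 2 CPM. Nearest to Tbx2 were Apc2 (difference 0.0891), Ncs1 (0.0892) and Tfap2a (0.0972), the last encoding the AP-2 alpha factor of the crest. Tfap2a fell from 7.61 ± 2.69 to 3.11 ± 0.558 CPM (SD, n = 3 each). Nearest to Tbx3 were Gap43 (0.135), a protein of growing axons, Fras1 (0.147), an extracellular matrix protein, and Tenm4 (0.158), a cell surface teneurin. Tbx3 itself ranked 734 of the 11786 genes in likeness to Tbx2, with a difference of 0.418. Tbx3 held 22 to 58 counts in a library, so counting error is part of that difference and was not separated from it. The likeness includes the difference between the groups and is a description over 6 libraries.

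Of 8 other family genes, T, Eomes, Tbr1, Tbx6, Tbx10, Tbx19 and Tbx21 did not pass the filter. Mga, which joins a T-box to a domain that binds Max, was the single one tested. It stood at 40.6 ± 4.99 CPM in the controls and 34.0 ± 7.54 CPM in the deficient samples (log2 fold change −0.26, SE 0.18, adjusted p = 0.391). Per length Mga was at 2.65 ± 0.326 CPM per kb in the controls, level with Tbx2, and at 2.22 ± 0.492 CPM per kb in the deficient samples.

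T-box factors act with cardiac partner factors such as Nkx2-5, Gata4 and Isl1. Of 12 partners, 7 were tested and 1 was called lower, at a median change of −0.19 on the log2 scale. Over all tested genes 4.88% were called lower, the share to set beside this list and each later one. Isl1, the factor of second heart field progenitors and of sensory neurons, fell from 6.11 ± 3.30 to 2.49 ± 0.895 CPM (log2 fold change −1.28, SE 0.41, adjusted p = 0.0965), and its groups overlapped. This call was lost in 7 of 13 other settings, 4 of them with a library left out. Among the 7 were limma-voom (adjusted p = 0.106) and edgeR with only genes of at least 2 CPM tested (adjusted p = 0.113). Srf (−0.08, adjusted p = 0.595) and Mef2c (−0.12, adjusted p = 0.759), muscle transcription factors, did not pass the test.

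Known targets of Tbx2 and Tbx3 were looked at for both directions. Tbx2 and Tbx3 repress the chamber gene Nppa, which encodes atrial natriuretic peptide, and the cell cycle inhibitor Cdkn1a. The T-box core AGGTGTGA was searched on both strands of RefSeq promoters (GRCm38.p6), each 250 bases before to 50 bases after a gene's start, with matches counted for either strand. It was present in 1.28% of 32851 promoters and in 2 of 61 promoters of 48 genes from the T-box, partner, target and pathway lists, those of Nppa and Cdkn1a. The 8 promoters found for Tbx1, Tbx4, Tbx18, Tbx20 and Tbx22 held no match to these letters, and no entry was found for Tbx2, Tbx3, Tbx5 or Tbx15. The matching stretches are shown because these are the members' best known targets, with the core in capitals, in reverse complement for Nppa (chr4:148000472-148000529, plus strand, starting 250 bases before the gene's start) and as read for Cdkn1a (chr17:29093771-29093800, plus strand, starting at base 14 of the transcript).
Nppa: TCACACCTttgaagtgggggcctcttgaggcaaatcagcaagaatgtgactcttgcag
Cdkn1a: cagcagccgagAGGTGTGAgccgccgcggt

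Nppa, whose promoter stretch is printed above, was at 11.0 ± 0.617 CPM in the controls and 9.40 ± 0.203 CPM in the deficient samples (SD, n = 3 each). Its groups did not overlap, but the difference did not pass the test (log2 fold change −0.23, SE 0.14, adjusted p = 0.298). Cdkn1a was at 354 ± 24.8 CPM in the controls and 405 ± 12.2 CPM in the deficient samples, a log2 fold change of 0.19 (SE 0.06, adjusted p = 0.0995) with no overlap. It passed the adjusted p but not the fold threshold. By adjusted p alone, 4.18% of all tested genes were higher. The 12 macrophage markers, from the cells with most of the marker RNA, had a median log2 fold change of 0.19 as well. Whether the change of Cdkn1a belongs to those cells or to cells with Tbx2 and Tbx3 was not tested. The paper reports that Cdkn1a did not change significantly in its own analysis. A match of letters is a description and says nothing here of binding.

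Of 8 target genes 5 were tested and 1 was called, with a median of −0.37. Mycn, a driver of growth that Tbx2 and Tbx20 are known to affect in the heart, fell from 6.63 ± 2.69 to 3.14 ± 1.08 CPM (log2 fold change −1.07, SE 0.34, adjusted p = 0.0965). The Mycn call was also lost in 7 of 13 other settings, 4 of them with a library left out. Among them were limma-voom (adjusted p = 0.108) and edgeR with only genes of at least 2 CPM tested (adjusted p = 0.113). Gja1, the connexin that Tbx2 represses, went from 31.1 ± 3.98 to 24.0 ± 1.59 CPM (log2 fold change −0.37, SE 0.10, adjusted p = 0.0784), under the fold threshold. By adjusted p alone 7.75% of all tested genes were lower.

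Tbx1 acts in the pharynx with Fgf, retinoic acid and Eya1. Of 16 genes of that pathway 11 were tested and 4 were called lower, and the median change was −0.81 on the log2 scale. That median includes Foxc2, which passed the filter on low counts through the controls. Wnt5a, a secreted ligand of tissue outgrowth, fell from 12.6 ± 2.47 to 4.68 ± 1.54 CPM (log2 fold change −1.44, SE 0.24, adjusted p = 0.0439). Cyp26b1, which degrades retinoic acid, fell from 6.13 ± 0.739 to 2.30 ± 0.350 CPM (−1.41, SE 0.24, adjusted p = 0.0439). The groups of Wnt5a and Cyp26b1 did not overlap, a pattern that 16.4% of all tested genes showed on the lower side. Eya1, a transcriptional coactivator of the arches, fell from 7.27 ± 1.34 to 4.18 ± 1.29 CPM (−0.81, SE 0.26, adjusted p = 0.0937), with no overlap. Crkl (−0.06, adjusted p = 0.636) and Prdm1 (0.08, adjusted p = 0.775), an adaptor protein and a repressor, did not pass the test.

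BMP signals switch on Tbx2 and Tbx3 in several tissues. Of 16 genes of that input 13 were tested and 2 were called lower, with a median of −0.39. Bmpr1a, a type I receptor, fell from 18.3 ± 4.30 to 9.67 ± 2.72 CPM (log2 fold change −0.93, SE 0.24, adjusted p = 0.0826). The Bmpr1a call was lost in 5 of 13 other settings, 4 of them with a library left out. Scaled to the crest and neural tube markers, Bmpr1a was at −0.15 (edgeR adjusted p = 0.749). Smad5, which carries the signal to the nucleus, fell from 24.2 ± 6.12 to 15.7 ± 1.62 CPM (−0.61, SE 0.16, adjusted p = 0.0781). The Smad5 change came under the fold threshold with limma-voom (−0.576), library totals (−0.544) and no filter on low counts (−0.565). Its call was also lost in 4 of the fits with a library left out. The type II receptor Bmpr2 passed the adjusted p but not the fold threshold (−0.39, SE 0.10, adjusted p = 0.0771). Smad4 (0.02, adjusted p = 0.883) and the BMP response gene Id2 (0.15, adjusted p = 0.170) did not pass the test. The ligand Bmp4 was at 1.16 ± 0.395 and 0.595 ± 0.241 CPM (adjusted p = 0.233). The ligand Bmp7 was lower without overlap and passed the adjusted p and the fold threshold (log2 fold change −1.27, SE 0.414, adjusted p = 0.0964). Bmp7 was not called because its mean level was under the 2 CPM that a call needs. Bmp2 (−0.79, adjusted p = 0.38) did not pass the test, and Bmp5 was not tested.

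Partners of Tbx15, Tbx18 and Tbx22 in limb and face mesenchyme were sparse. Of 8 genes 3 were tested and 3 were called lower, with a median of −1.62. Alx4, a homeobox factor of facial and limb mesenchyme, fell from 7.09 ± 4.31 to 1.44 ± 0.167 CPM (log2 fold change −2.26, SE 0.40, adjusted p = 0.0483). Mn1, a coactivator upstream of Tbx22 in the palate, fell from 19.5 ± 9.06 to 6.36 ± 1.77 CPM (−1.62, SE 0.37, adjusted p = 0.0779). Alx4 stands in more than one of the lists. In the partner, target, pathway and marker lists together 21 genes were called lower, but 0 without control replicate 1, 4 without control replicate 2, 5 without deficient replicate 2 and 0 without deficient replicate 3.

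**Figure D4:**
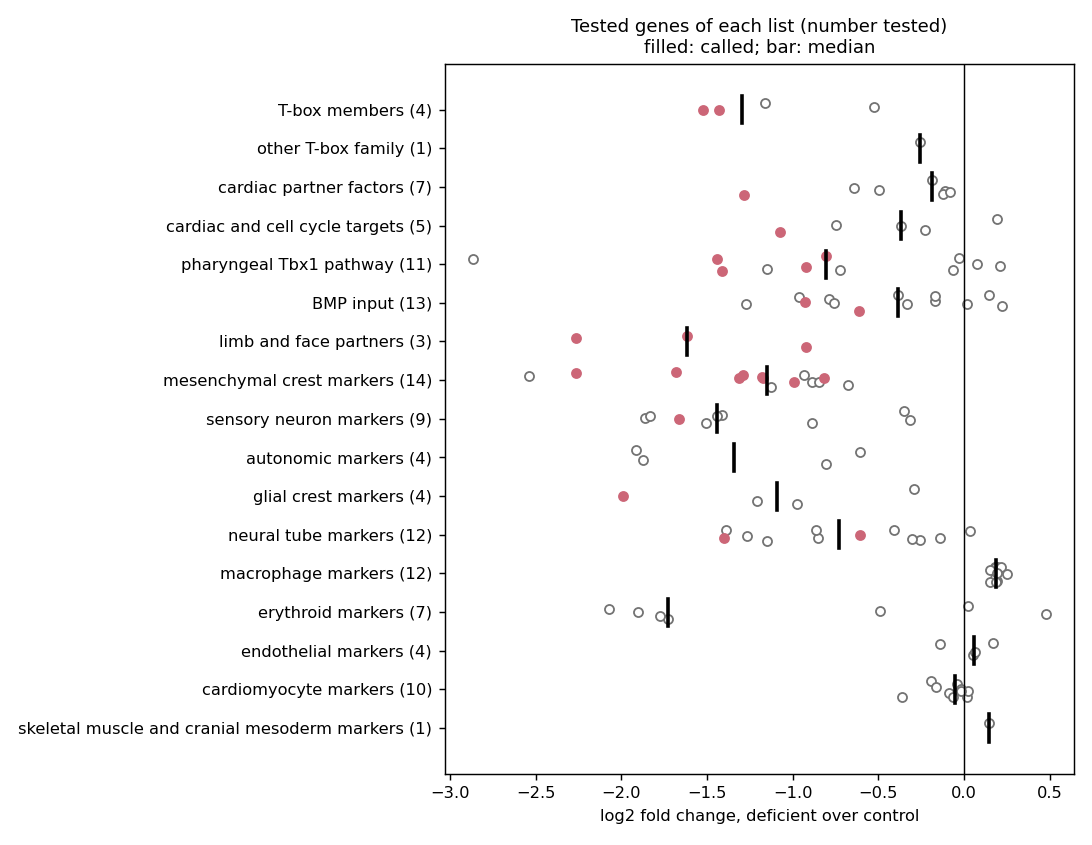
Log2 fold change, deficient over control, of each tested gene of the T-box members, of their partner, target and pathway lists and of the marker lists (number tested in brackets); filled circles are called, the bar is the median. The T-box members have a median of −1.29, including Tbx20, which passed the filter through the controls. Genes of other lists, such as Foxc2, Dlx6, Prdm12, Ret and Wnt1, also passed it through the controls. Medians are −1.15, −1.44 and −1.34 for the mesenchymal crest, sensory neuron and autonomic markers and −0.05 for the cardiomyocyte markers.

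Markers of crest derivatives and neural tube were compared between the same libraries. Of 16 mesenchymal crest markers 14 were tested and 8 were called lower, with a median of −1.15, and their sum ran from 76.6 to 131 CPM in the controls and from 37.6 to 59.0 CPM in the deficient samples, without overlap. Over all tested genes 4.88% were called lower and 16.4% were lower without overlap. No such share was taken for sums of genes. The sensory neuron markers (9 tested, 1 called, median −1.44), autonomic markers (4 tested, 0 called, median −1.34), glial crest markers (4 tested, 1 called, median −1.09) and neural tube markers (12 tested, 2 called, median −0.73) also had negative medians, and each of their calls was on the lower side. Genes such as Dlx6 (mesenchymal), Prdm12 (sensory), Ret (autonomic) and Wnt1 (neural tube) had no deficient library at the filter's cut-off of 0.823 CPM. They passed through the controls, which favoured negative values, and the medians of their lists include them. Prdm12 itself is the sensory median. The sums did not overlap for the sensory (46.1 to 126 and 27.5 to 37.6 CPM) and autonomic lists (7.06 to 18.5 and 5.03 to 6.42 CPM). They overlapped for the glial (24.9 to 53.6 and 18.2 to 25.2 CPM) and neural tube lists (65.4 to 101 and 41.8 to 72.2 CPM). For the autonomic list, 2 genes had an edgeR unadjusted p under 0.05, as did 3813 of all 13961 tested genes. DESeq2 called 0 of that list and limma-voom 0. Twist1, a defining factor of mesenchymal crest, was detected at 9.57 ± 3.60 CPM in the controls and fell to 4.18 ± 0.539 CPM (SD, n = 3 each, edgeR adjusted p = 0.0647). Within the controls, replicate 2 was the highest and replicate 3 the lowest in Tbx2, Tbx3, mesenchymal crest, sensory neuron and neural tube markers alike.

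When libraries were scaled to the median of 27 of these markers, the median over all tested genes moved from −0.02 to 0.71, Tbx2 to −0.58 (SE 0.37, edgeR adjusted p = 0.192) and Tbx3 to −0.67 (SE 0.41, adjusted p = 0.167), and neither was called. With this scaling 0 of the 13961 tested genes were called lower, and the SE of Smad4 was 0.38 in place of 0.07. Not passing the test therefore says little of Tbx2 or Tbx3 relative to the typical crest and neural tube marker. The scaling takes the typical marker as unchanged, so it also removes any change the markers share.

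**Figure D5:**
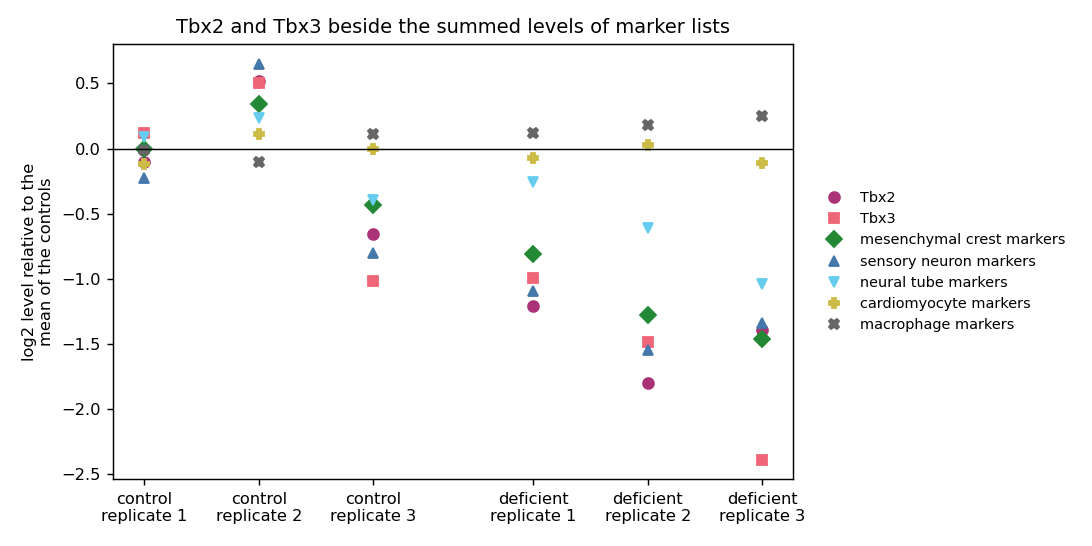
Level of Tbx2 and Tbx3 and summed CPM of 5 marker lists in each library, as log2 relative to the mean of the 3 controls; each symbol is 1 gene or list, with controls at left and deficient libraries at right. Tbx2, Tbx3 and the mesenchymal crest, sensory neuron and neural tube markers lie below 0 in all 3 deficient libraries and in control replicate 3. Cardiomyocyte markers stay within −0.12 and 0.12.

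Markers of other cell types did not all move in 1 direction. Cardiomyocyte markers, whose cells express Tbx5 and Tbx20 in the heart, were present in every library, at 315 to 370 CPM in the controls and 317 to 349 CPM in the deficient samples. Of 11 genes 10 were tested and 0 were called by edgeR, DESeq2 or limma-voom, with 0 at an unadjusted p under 0.05 and a median of −0.05. The markers were not evenly present. Myh6, the highest, was at 125 ± 14.5 CPM in the controls and 119 ± 1.62 CPM in the deficient samples. Myl7 was at 1.99 ± 0.407 and 1.99 ± 0.456 CPM, and Tnni1, which was not tested, at 0.34 and 0.50 CPM. Epicardial markers, which would accompany Tbx18, summed to 0.532 to 0.821 CPM in the controls and 0.917 to 1.33 CPM in the deficient samples, none of 6 was tested and Upk1b was at 0 in every library. Epithelial markers were also sparse and lower in the deficient samples, with sums of 2.13 to 2.81 and 0.855 to 1.59 CPM that did not overlap, and none of 7 was tested. The skeletal muscle and cranial mesoderm list summed to 83.2 to 101 and 99.9 to 110 CPM, with 1 of 6 genes tested. That gene, Lhx2, alone stood at 94.3 CPM in the controls, and Myod1, Myf5 and Myog, the defining factors of skeletal muscle, were at 0.0547, 0.0983 and 0.0446 CPM.

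Macrophage markers had a summed level of 12100 to 14100 CPM in the controls and 14200 to 15500 CPM in the deficient samples. All 12 had positive log2 fold changes with a median of 0.19, and 0 were called by edgeR, DESeq2 or limma-voom. Of the 12, 9 had an edgeR unadjusted p under 0.05 and 1 passed the adjusted p alone. Over all 13961 tested genes, 3813 had an edgeR unadjusted p under 0.05, in either direction. Erythroid markers ran from 17.2 to 67.6 CPM in the controls and from 10.3 to 16.4 CPM in the deficient samples (7 tested, median −1.73), and endothelial markers from 174 to 196 and from 200 to 212 CPM (4 tested, median 0.06). The erythroid sums were thus lower in the deficient samples without overlap. Kdr alone made up 173 CPM of the endothelial sum of 182 CPM in the control mean, so that sum follows 1 gene. Of the erythroid list edgeR called 0, with 3 at an unadjusted p under 0.05, where DESeq2 called 3 and limma-voom 1. Of the endothelial list edgeR, DESeq2 and limma-voom called 0, with 1 at an unadjusted p under 0.05. The part of these marker shifts in the lower levels of Tbx2 and Tbx3 was not tested.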

How the data were processed

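RNAseq of GFP-positive NCCs covered 6 samples, 3 control and 3 with deletion of BAF155 and BAF170. The authors trimmed reads with cutadapt (1.18, FastQC 0.11.7), aligned them with STAR to GRCm38 and counted them per gene by featureCounts. The deposited values are whole-number counts per gene without normalization. The annotation release, strand setting and treatment of multiply mapped reads are not given in the sources used here. Identifiers were matched without their version to GENCODE release 21 (46488 of 46983 genes; the others held at most 0.0706% of a library).

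The test was run with edgeR 4.0.16 in R 4.3.3: filterByExpr (minimum count 10, total 15), TMM and a robust quasi-likelihood test with condition as the only term, with Benjamini-Hochberg adjustment over 13961 genes. The authors' thresholds were kept, but edgeR replaced the limma test of the paper. The paper reports many more differentially expressed genes than the 681 lower and 8 higher called here, and the reason was not tested. The methods say that 3 embryos were collected per genotype, but whether each library is 1 embryo is not stated, so p-values measure the spread between these samples. No library pair agreed within sampling noise. Members and lists were chosen with earlier results of these data known. Named are all members, Smarcc1 and Smarcc2, and the 3 genes nearest in pattern to Tbx2 and to Tbx3. Per list, at most the 3 called genes with the largest change and the 3 with the highest mean CPM are named. Eya1, Bmp2, Bmp4, Bmp5, Bmp7 and the marker genes Twist1, Myh6, Myl7, Tnni1, Upk1b, Lhx2, Myod1, Myf5, Myog and Kdr were picked after their values were seen. Tbx3os1 was named as an overlapping gene. Foxc2, Dlx6, Prdm12, Ret and Wnt1 were named, after their values were seen, for how they passed the filter. Alternatives were DESeq2 1.42.0, limma-voom (limma 3.58.1), other scalings, filters and thresholds, a replicate block and each library left out. Scripts were tested on simulated data. Intervals and floors cover counting error only. A called gene that the rule names is not reported here.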

Additional observations from a re-analysis of the deposited data

How the results depend on the processing

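Both member calls were kept under DESeq2, limma-voom, library totals and no filter on low counts. Members called lower were 0 at an adjusted p of at most 0.05, 0 when scaled to embryonic markers, 1 when only genes with a mean of at least 2 CPM were tested, and 0 to 2 with each library left out. With only genes of at least 2 CPM tested, Tbx3 was at −1.55 (edgeR adjusted p = 0.105). With a library left out, Tbx2 ran from −1.69 to −1.09 and Tbx3 from −1.87 to −1.19. Scaled to embryonic markers, Tbx2 was at −0.58 and Tbx3 at −0.67, neither called, and Tbx15 turned to 0.25, Mga to 0.48, Bmpr2 to 0.38, Crkl to 0.67, Gja1 to 0.37, Mef2c to 0.63, Nppa to 0.51, Smad5 to 0.15 and Srf to 0.65. Crkl was at 0.0011 with library totals, Smad4 at −0.0071 with only genes of at least 2 CPM and −0.0053 without deficient replicate 1, and Prdm1 at −0.0768 without control replicate 2. With a library left out, Prdm1 ran from −0.0768 to 0.2235 and Smad4 from −0.0053 to 0.063. The cause was not tested.

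Over the whole table, genes called lower and higher numbered 0 and 33 when scaled to embryonic markers, 94 and 0 at an adjusted p of at most 0.05, and 1082 and 583 by adjusted p alone. Called higher were 15 with DESeq2, 33 without a filter and 2 with only genes of at least 2 CPM. With a library left out the calls ran from 0 to 1219 lower and from 0 to 45 higher. Of the 114 tested genes of the partner, target, pathway and marker lists, 21 were called lower, 0 when scaled to embryonic markers, 4 at an adjusted p of at most 0.05 and 0 to 34 with a library left out; 2 were higher by adjusted p alone.

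Deviations from the group mean correlated at 0.0284, −0.0335 and 0.293 between samples of replicate numbers 1, 2 and 3. The last was the largest of any control and deficient pair. With 3 libraries per group, such correlations cannot decide whether the numbers pair the samples. With the replicate block, 1143 genes were called lower and 21 higher, Tbx2 was at −1.37 (edgeR adjusted p = 0.0115) and Tbx3 at −1.50 (adjusted p = 0.00522); not every library correlated best with its own number. Depth limits the 5 sparse members, whose directions were not all kept when a library was left out: the log2 ratio of mean CPM ran from −1.26 to 0.55 for Tbx1 (−0.67 with all libraries), from −0.41 to 0.78 for Tbx5 (0.03), from −1.46 to −0.10 for Tbx22 (−0.68), from −2.70 to −1.24 for Tbx18 and from −2.50 to −0.97 for Tbx4.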
